A study of Homo sapiens with 2 samples.

Results

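MBNL1, MBNL2, QKI, RBFOX2 and CELF1 encode RNA-binding proteins that set tissue-specific splicing, and their own transcripts are alternatively spliced. All rows that carry 1 of these 5 gene symbols were taken from the 5 tables of splicing events that the authors made with rMATS and deposited. They amounted to 121 of 159490 rows, and the 5 genes were among 12254 symbols in the tables. The tables compare polyadenylated RNA of the human embryonic kidney line HEK293T between 1 library of control cells, labelled as untreated, and 1 library of cells kept for 6 h in medium with 300 µg/mL of amiloride, a potassium-sparing diuretic. CELF1 had 43 rows, RBFOX2 29, QKI 27, MBNL1 20 and MBNL2 2.

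Neither condition was replicated, so a call describes a contrast of 2 libraries and carries no error between cultures. The headers number the libraries without naming the condition. Therefore every difference below subtracts the second numbered library from the first, its sign cannot be assigned to amiloride, and reads or inclusion levels per library were not used. The inclusion level is the share of length-normalized reads that hold the longer or included form. An event was called when its FDR was under 0.1 in the authors' table. Gene expression was not measured from these tables, so neither the identity of the cells nor the depth behind an event was checked. Reads of the added exon or stretch itself were counted for the included form in all 87 member events that are not mutually exclusive exons. The effective lengths of the 2 forms in those events differed by exactly the length of the stretch.

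Splicing regulators of this kind bind short RNA motifs beside an exon and raise or lower its use, often depending on the side on which they bind. Muscleblind proteins (MBNL1 and MBNL2) bind a GC dinucleotide between pyrimidines through zinc fingers, and their loss to expanded CUG repeats underlies myotonic dystrophy. CELF1 binds GU-rich RNA and often acts opposite to the muscleblind proteins in heart and skeletal muscle. RBFOX2 recognises TGCATG (written as DNA) through a single RNA recognition motif, and QKI, a KH-domain protein needed for myelination, recognises ACTAAC and close forms. Several of these proteins are known to regulate exons of their own genes.

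The exons that carried the largest differences, and those in which the members could be compared with each other, are shown here with the last 20 intron bases before the exon and the first 6 after it. Capitals mark the exon. All are read 5′ to 3′ on the transcribed strand of GRCh37.
MBNL1 exon of 54 bases, chr3:152164493-152164546, plus strand: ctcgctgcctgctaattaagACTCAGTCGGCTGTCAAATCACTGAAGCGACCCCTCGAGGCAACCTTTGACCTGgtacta
MBNL1 exon of 36 bases, chr3:152173331-152173366, plus strand: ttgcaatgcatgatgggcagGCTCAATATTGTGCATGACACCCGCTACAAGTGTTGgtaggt
MBNL1 exon of 95 bases, chr3:152174056-152174150, plus strand: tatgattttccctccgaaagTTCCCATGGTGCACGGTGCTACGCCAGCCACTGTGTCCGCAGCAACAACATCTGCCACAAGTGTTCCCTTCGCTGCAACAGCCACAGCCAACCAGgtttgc
MBNL2 exon of 95 bases, chr13:98018713-98018807, plus strand: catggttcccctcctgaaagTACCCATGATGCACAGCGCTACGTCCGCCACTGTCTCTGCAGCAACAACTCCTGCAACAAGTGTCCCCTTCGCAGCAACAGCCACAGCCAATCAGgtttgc
QKI exon of 75 bases, chr6:163987753-163987827, plus strand: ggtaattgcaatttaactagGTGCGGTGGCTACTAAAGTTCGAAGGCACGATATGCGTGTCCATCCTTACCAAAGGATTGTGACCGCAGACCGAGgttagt
RBFOX2 exon of 93 bases, chr22:36164304-36164396, minus strand: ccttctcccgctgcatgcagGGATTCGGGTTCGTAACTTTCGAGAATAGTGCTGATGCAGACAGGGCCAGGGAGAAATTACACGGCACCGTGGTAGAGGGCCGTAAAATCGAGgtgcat
RBFOX2 exon of 40 bases, chr22:36152152-36152191, minus strand: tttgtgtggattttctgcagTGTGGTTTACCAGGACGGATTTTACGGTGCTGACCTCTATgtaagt
CELF1 exon of 80 bases, chr11:47505005-47505084, minus strand: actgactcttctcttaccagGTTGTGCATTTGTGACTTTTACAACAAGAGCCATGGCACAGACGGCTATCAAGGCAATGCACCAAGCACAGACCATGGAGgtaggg

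The skipped-exon table listed 70 events of the 5 genes, of which 24 were called, or 34.3%, where 27.5% of all events in the table were called. The events fell on 37 distinct exons, and 19 of these had a called event, against a background of 35.8% of distinct exons. Called exons were 3 of 8 in MBNL1, 1 of 2 in MBNL2, 3 of 5 in QKI, 5 of 9 in RBFOX2 and 7 of 13 in CELF1. An exon can be listed with several pairs of flanking exons: 22 of the 37 were, and 8 of the 19 called exons also had an event that was not called. Below, an exon is represented by its event of lowest FDR. Over the 37 exons the median difference was 0.028, beside 0.025 over all exons of the table. Of the 70 events, 9 were called and reached 0.1 in either direction, as did 14.5% of all events.

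Most called exons had the sign shared by nearly all calls of the table, and 3 did not. Of the 24 called member events, 21 were positive and 3 negative, or 87.5% positive, beside 96% of all called events. Events both called and negative were 3 of the 70, where 1.1% of all events were. The 3 negative events belonged to MBNL1, MBNL2 and CELF1. All called events of QKI, 5 of them, and of RBFOX2, 7 of them, were positive.

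**Figure D1:**
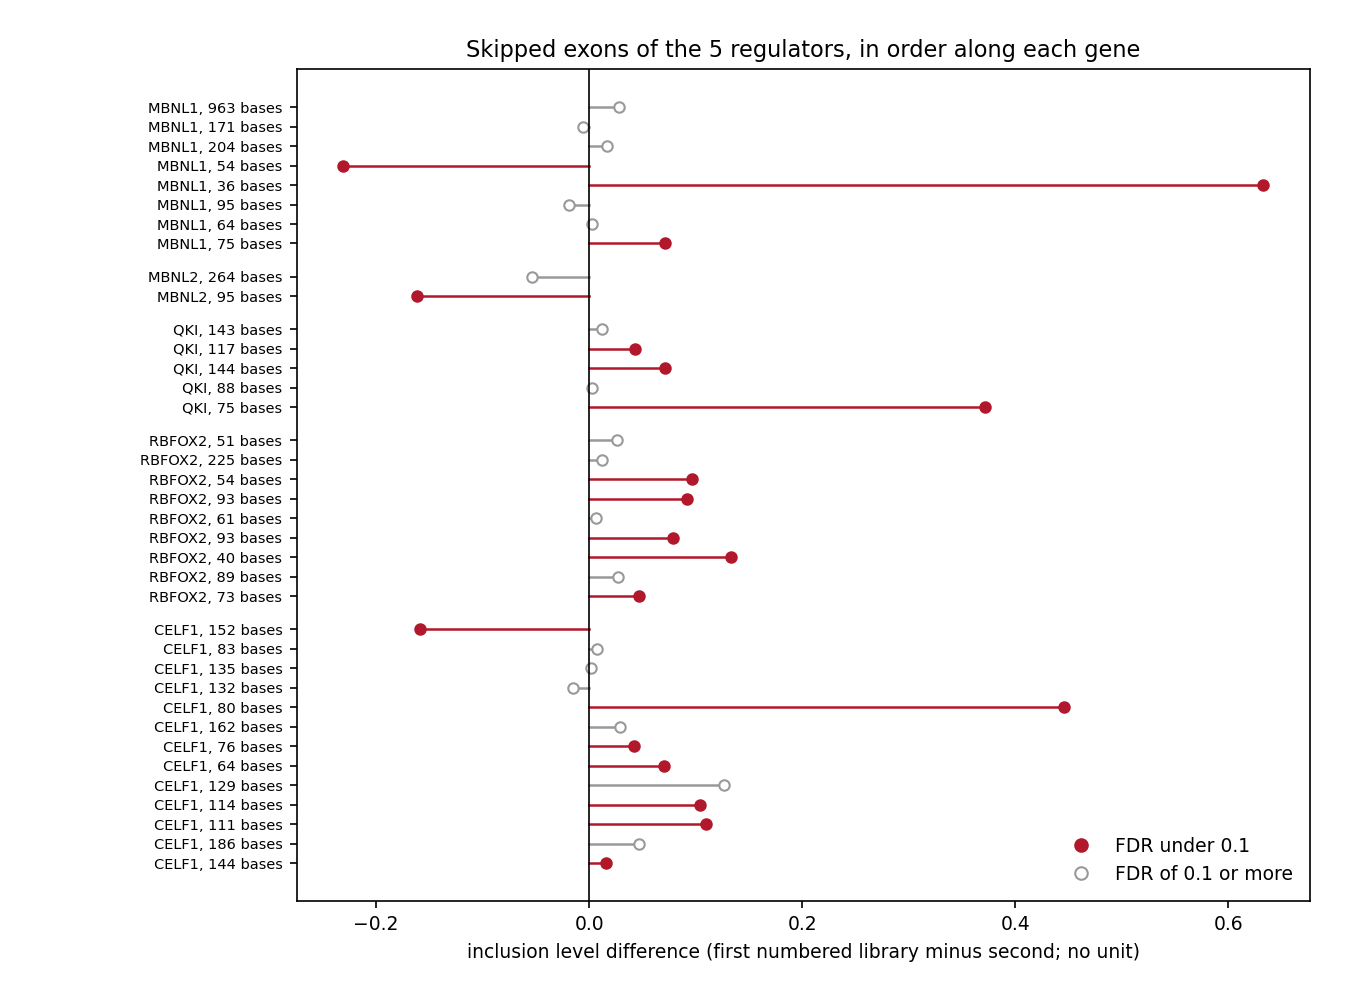
Inclusion level difference (horizontal axis, no unit, first numbered library minus second) of the 37 skipped exons of the 5 genes, in order from the 5′ end of each gene, with the event of lowest FDR standing for each exon. Filled points had an FDR under 0.1. The values run from -0.231 for the 54-base exon of MBNL1 to 0.633 for its 36-base exon.

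MBNL1 held the largest positive and the largest negative difference of the 37 exons. The exon of 36 bases, exon 7 of the 10 in the canonical transcript, had a difference of 0.633, with an FDR listed as 0 in the authors' table. That event pairs it with the 154-base exon before it and the 95-base exon after it. When the flanking exon downstream was instead the 75-base exon, the difference was 0.01 and the FDR 0.95. The large value was therefore listed in 1 of the 2 skipped-exon events of the 36-base exon.

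The 54-base exon of MBNL1 moved with the opposite sign. This exon is known to carry a signal that keeps the protein in the nucleus, and its use is regulated by MBNL1 itself. Its single event had a difference of -0.231, with an FDR listed as 0 in the authors' table. It is coding in 5 of the 24 annotated MBNL1 transcripts and is absent from the canonical one. Both the 54-base and the 36-base exon keep the reading frame, adding 18 and 12 codons. No exon of 54 or 36 bases was listed for MBNL2.

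The other MBNL1 exons differed little. The 75-base exon, which holds the stop codon in the 12 transcripts that contain it, had a difference of 0.071 with an FDR of 0.00036 in the authors' table. In a second event, with the 95-base exon upstream, it differed by 0.022 with an FDR of 0.055. By their event of lowest FDR, the 5 exons that were not called ranged from -0.019 to 0.028. They comprise the large exon of 963 bases with the start of the coding sequence, the exons of 171 and 204 bases that follow it, and the exons of 95 and 64 bases near the 3′ end.

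MBNL2 had an exon similar to one of MBNL1. Its exon of 95 bases was called at -0.162, with an authors' FDR of 0.0095. That event has an exon of 154 bases upstream. The MBNL1 exon of the same length was not called in any of its 3 events. It gave 0.088 and -0.003 after an exon of 154 bases, with authors' FDRs of 0.86 and 1, and -0.019 after the 36-base exon, with an authors' FDR of 0.12. The exons shown above share 81 of 95 bases, or 85.3%, differ at 14, and have the same 5′SS score of 4.72, while their 3′SS scores are 5.0 in MBNL1 and 2.68 in MBNL2. Whether the 2 exons differ in response was not tested. The MBNL2 exon is present in 4 of 11 annotated transcripts and shifts the reading frame when skipped. The second MBNL2 exon listed, of 264 bases, differed by -0.054 and was not called.

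RBFOX2 showed small positive differences spread along the gene. The exon of 40 bases in the region that encodes the C-terminal part, exon 11 of 14, gave the largest value, 0.133, and its FDR in the authors' table was 2.02e-11. Joined directly to the last exon it differed by 0.081, with an FDR of 0.0083. The exon's length is not a multiple of 3, so its use shifts the reading frame.

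Exons 5 and 6 of RBFOX2, which encode part of the RNA recognition motif, were both called. The 93-base exon 6 is the exon whose skipping is known to give a protein that no longer binds RNA well and acts against the full-length form. Its 2 events differed by 0.092 and 0.051, with FDRs of 4.00e-07 and 1.26e-06 in the authors' table. The 54-base exon 5 differed by 0.097 when joined to exon 7, with an FDR of 4.83e-07, and by 0.006 when joined to exon 6, where it was not called. Both exons keep the frame. Thus each of these exons gave its larger value in the event whose flanks leave out the other.

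A second RBFOX2 exon of 93 bases, exon 9, differed by 0.079 with an FDR of 6.21e-10 in the authors' table. It is not a copy of exon 6, since the 2 exons match at 17 of 93 positions. Exon 13, of 73 bases, differed by 0.047 with an FDR of 0.025. The 4 exons of RBFOX2 that were not called, of 51, 225, 61 and 89 bases, ranged from 0.006 to 0.027 by their event of lowest FDR, and another event of the 89-base exon gave 0.189 without a call. No RBFOX2 exon of 43 bases was listed.

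In QKI the largest difference among skipped exons lay at the 3′ end, where alternative last exons give the protein its isoform-specific C terminus. The exon of 75 bases, exon 7 of 8, differed by 0.372 with an FDR listed as 0 in the authors' table. The exons that encode the KH domain and its surroundings gave smaller values. Exon 4, of 144 bases, differed by 0.071 with an FDR listed as 0, and by 0.043 when joined to exon 2. Exon 3, of 117 bases, differed by 0.043 with an FDR of 9.75e-06 in the authors' table. Its 5 events ranged from 0.014 to 0.1, and the largest of them was not called. Exons 2 and 5 were not called and differed by 0.012 and 0.003.

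CELF1 had the second largest positive difference of the 37 exons. Its 80-base exon, exon 8 of 15 and within the region that encodes the RNA recognition motifs, differed by 0.446 with an FDR listed as 0 in the authors' table. The exon is coding in all 8 transcripts that contain it, and since 80 is not a multiple of 3 its skipping shifts the frame. At the 5′ end, the 152-base exon 3 differed by -0.159 with an FDR of 0.00015. That exon holds both coding and untranslated bases in 5 of the 6 transcripts that contain it. Its sign was opposite to that of the 6 called exons further on.

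CELF1 had 3 exons with tandem 3′SS, each listed in both of its forms. The forms of 111 and 114 bases differed by 0.11 and 0.104, both with an FDR listed as 0 in the authors' table, and those of 64 and 76 bases by 0.07 and 0.042. The forms of 132 and 135 bases gave -0.015 and 0.002 and were not called. The forms of an exon share all but 3 or 12 bases and thus most of their reads. The 144-base exon 14 was called at a difference of 0.016, with an FDR of 0.075. The 6 exons not called ranged from -0.015 to 0.127. The last of these values belonged to the 129-base exon 11, whose FDR was 0.34.

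A length that is a multiple of 3 was found in 12 of the 19 called exons and in 23 of the 37 listed ones, beside 38.8% of all exons in the table. Length alone was counted. The 75-base exon of MBNL1 with the stop codon is in both counts, and its 963-base exon with the coding start is among the 23. Tandem forms of CELF1 exons count separately.

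Mutually exclusive exon events compare the use of 1 exon with that of a neighbour, and 13 of 34 member events were called, beside 39.3% of all such events. Apart from the 154-base exon of MBNL1, the exons they compare are also among the 37 skipped exons, and the tables share reads. That exon was favoured over the 95-base exon by 0.09, with an FDR of 0.0008 in the authors' table. MBNL1 had 5 of its 6 events called, RBFOX2 5 of 7, CELF1 2 of 15 and QKI 1 of 6. No MBNL2 event was listed. A positive difference means that the exon named first was favoured in the first numbered library.

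The 3′ part of MBNL1 showed differences of both signs for the same pair of exons. Between the 36-base and the 95-base exon, the former was favoured by 0.27, with an FDR listed as 0 in the authors' table. Between the 95-base and the 75-base exon, the difference was 0.208 when the 36-base exon lay upstream, with an FDR of 1.02e-12. It was -0.416, with an FDR listed as 0, when the 154-base exon lay upstream. The sign thus turned with the upstream exon to which the pair was joined.

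In RBFOX2 the 40-base exon was favoured over the 89-base exon by 0.215, with an FDR of 4.64e-08 in the authors' table. The 89-base exon against the 73-base exon gave -0.136, with an FDR of 5.76e-08. At the 5′ end, the 51-base exon against the 225-base exon gave 0.118 and 0.067 for the 2 acceptor forms of the next exon. Neither exon was called when listed as a skipped exon. In QKI the 117-base exon against the 144-base exon gave -0.064 after exon 1, with an FDR of 2.60e-09 in the authors' table. After exon 2 the same pair gave -0.009 and was not called.

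No alternative 5′SS event was listed for any of the 5 genes, in a table where 28.2% of 2620 events were called. Alternative 3′SS were listed for 3 of them. There 9 of 14 events were called, beside 23% of all events of that table. The long added stretches of QKI overlap each other, as do those of CELF1, so these events are not independent. Of the 9, 7 were positive and 2 negative, which means that the longer form had the higher level in the first numbered library in 7. Of all called 3′SS events, 32% were positive.

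QKI gave the largest 3′SS differences. All 4 events were called, and 3 of them, with added stretches of 1279, 4748 and 6027 bases downstream of exon 6 on chromosome 6, differed by 0.119, 0.544 and 0.524. The remaining event, a tandem site of 24 bases, differed by 0.024 with an FDR of 0.045 in the authors' table. The stretch of 6027 bases overlaps exons of 12 of the 17 annotated QKI transcripts, and 6 of them end inside it. All reads on a stretch count for the longer form, whichever transcript they come from.

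The retained intron table covered the same region. All 3 member events were of QKI, all were called, and 48.2% of all retained intron events were called. Introns of 947, 2226 and 6974 bases, which start at the same 5′SS, differed by 0.514, 0.14 and 0.543, with a highest FDR of 0.002 in the authors' table. The longest overlaps exons of 12 of the 17 transcripts. Thus skipped-exon, 3′SS and retained intron events of the QKI 3′ end were all positive, and since they share reads they are not independent. Of all called retained intron events, 34.7% were positive.

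**Figure D2:**
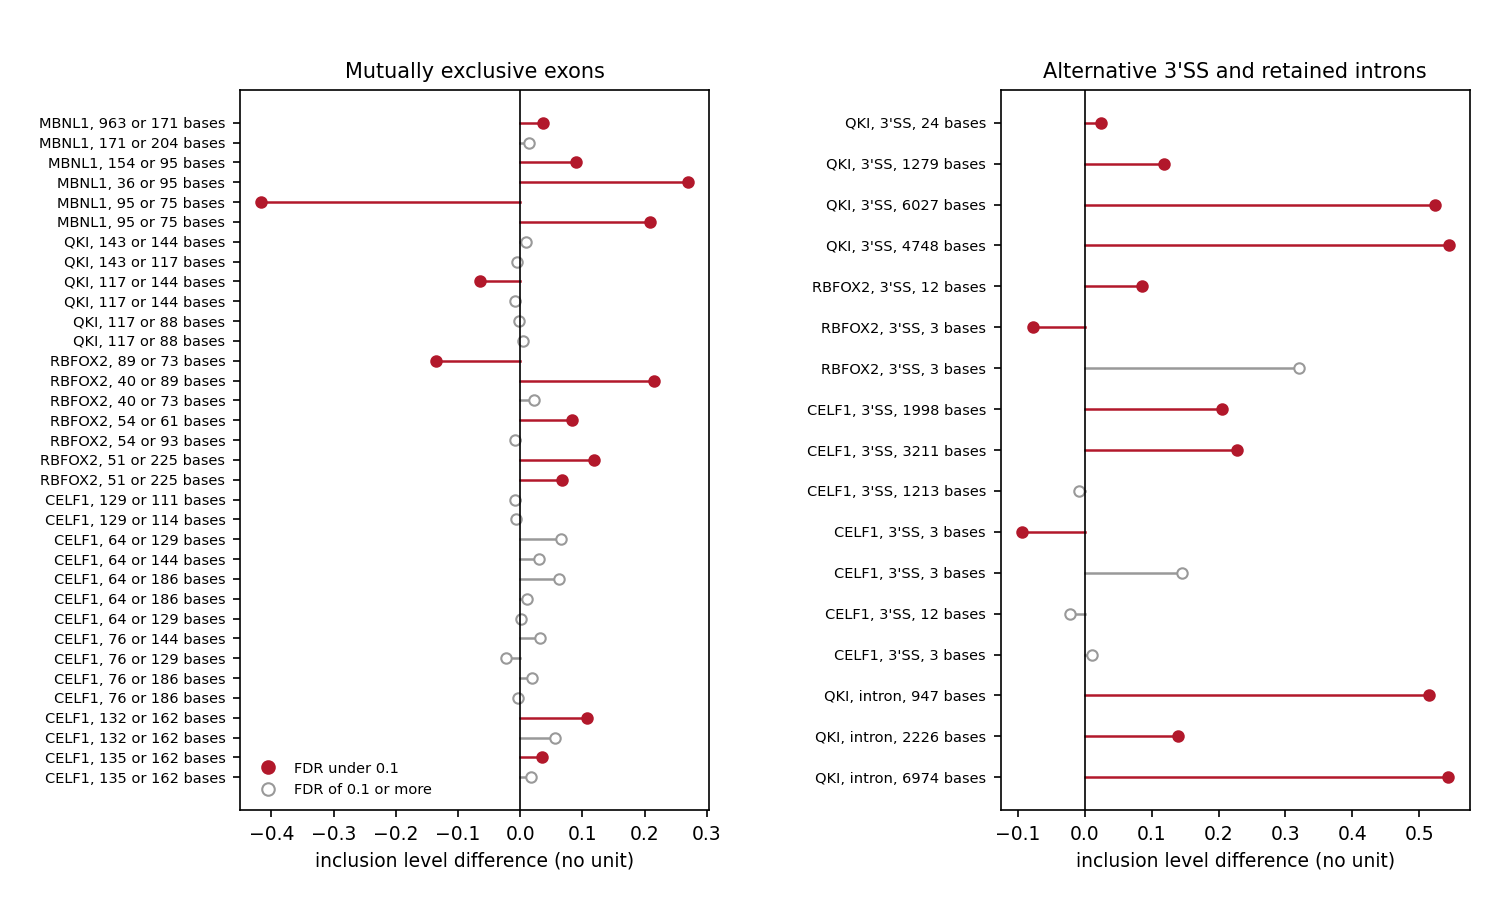
Inclusion level difference (horizontal axes, no unit) of the 34 mutually exclusive exon events (left, with the favoured exon at a positive value named first) and of the 14 alternative 3′SS and 3 retained intron events (right, with the length of the added stretch). Filled points had an FDR under 0.1. The QKI events at the right reach 0.544, and the lowest value at the left is -0.416 in MBNL1.

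CELF1 and RBFOX2 had 3′SS events of other kinds. In CELF1 the long terminal stretches of 1998 and 3211 bases, which lie outside the coding sequence of every annotated transcript, gave 0.205 and 0.227, each with an FDR listed as 0 in the authors' table. The shorter stretch lies within the longer. The remaining 1213 bases of the longer one, listed as a separate event, gave -0.008 and were not called. The 3-base tandem site of CELF1 exon 12 gave -0.094 with an FDR of 0.0061, so the form without the extra 3 bases had the higher share in the first numbered library. The 3-base tandem site of RBFOX2 exon 4 gave -0.078 with an FDR of 0.039, and a 12-base tandem site of RBFOX2 exon 10 gave 0.086 with an FDR of 0.02. These 3-base sites were negative where called, while with another upstream exon the same sites gave 0.146 in CELF1 and 0.321 in RBFOX2 without a call. A further 3-base site of CELF1, that of exon 7, gave 0.011 and was not called.

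Splice site strength was described with motif scores, in which each base adds the log2 ratio of its frequency at annotated sites over an equal frequency. Each of the 37 exons follows an AG and precedes a GT. The median 3′SS score was 9.22 over the 37 exons and 9.21 over all exons of the table, and the median 5′SS score was 7.95 against 8.07. Within the members, the 19 called exons had a median 3′SS score of 7.31 and the 18 others of 10.7. Tandem forms of CELF1 exons count separately in these medians. The same split was not made over all exons of the table, so it cannot be called particular to the members.

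Several of the exons with large differences had low 3′SS scores. The 36-base exon of MBNL1 scored -0.43, which is higher than only 0.63% of all exons. The QKI exon of 75 bases scored 1.84, the 54-base exon of MBNL1 2.16 and the MBNL2 exon of 95 bases 2.68, at percentiles of 2.07, 2.46 and 3.31. The 80-base exon of CELF1, with the second largest difference, scored 11.2 at a percentile of 73.2. The 152-base exon of CELF1 scored 5.62 and the 40-base exon of RBFOX2 7.53, at percentiles of 14.4 and 30.7. The CELF1 forms of 111 and 114 bases scored 9.31 and 7.51, at percentiles of 51.2 and 30.6. A low score also occurred with a small difference, since exon 9 of RBFOX2 scored 2.76, at a percentile of 3.43, and differed by 0.079. At the 5′SS, the 54-base exon of MBNL1 scored 3.03, at a percentile of 2.67. The 5′SS of the MBNL2 exon of 95 bases was at a percentile of 8.15 and that of the 36-base exon of MBNL1 at 29.4. The 75-base exon of QKI was at 45 and the 40-base exon of RBFOX2 at 45.6. In CELF1 the exons of 152 and 80 bases were at 31.5 and 48.6, and the forms of 111 and 114 bases at 95.4. In the sequences above, the bases before the MBNL1 exon of 36 bases lack the run of pyrimidines that usually precedes the AG.

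Binding motifs of the 5 proteins were searched on the transcribed strand in each exon and 250 bases of intron on either side. TGCATG, the RBFOX motif, was present at 15 of the 37 exons, or 40.5%, and at 16.6% of all exons of the table. It was spread unevenly over the genes. Most MBNL1 exons and the listed MBNL2 exons held it, while most CELF1 exons and all QKI exons lacked it. For CELF1 the letters TGTTTGT or TGTGTGT were found at 16 member exons, or 43.2%, beside 21% of all exons. The muscleblind forms are TGCT, its relative TGCC, the form CGCT and the form CGCC, which can overlap, and at least 4 matches within 100 bases were found at 15, or 40.5%, beside 45.1%. ACTAAC or ACTAAT, the QKI forms, were found at 5, or 13.5%, beside 16.4%. Exons of 1 gene share surroundings, so these shares describe 5 genes rather than 37 independent exons. A match is no evidence of binding.

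**Figure D3:**
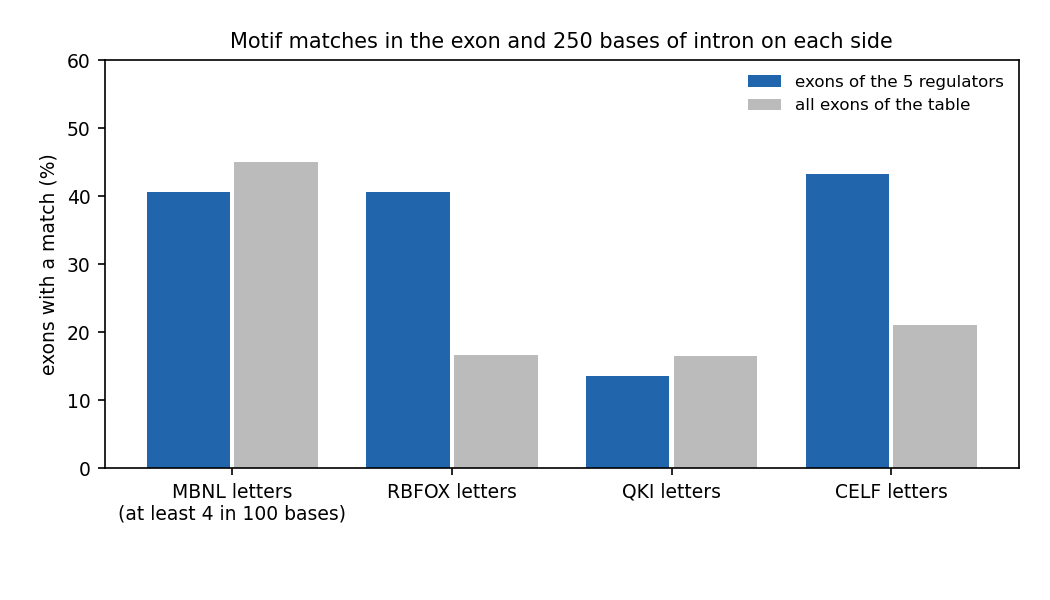
Share of exons (vertical axis, percent) with a match to the letters of each protein in the exon and 250 bases of intron on each side, for the 37 exons of the 5 genes (blue) and all 67154 exons of the table (grey). The blue bar is the higher one for the RBFOX and CELF letters, at 40.5% and 43.2%.

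The intron before the 54-base exon of MBNL1 held 10 muscleblind matches in its last 100 bases and none in the 100 bases after the exon. Exons that were not called had clusters too. Within any 100 bases of the exon and 250 bases of intron on each side, the 963-base exon of MBNL1 held up to 9 matches. The 264-base exon of MBNL2 held up to 7. The intron before the 54-base exon is shown with the matches in capitals, where neighbouring matches can overlap.
MBNL1, chr3:152164393-152164492, plus strand: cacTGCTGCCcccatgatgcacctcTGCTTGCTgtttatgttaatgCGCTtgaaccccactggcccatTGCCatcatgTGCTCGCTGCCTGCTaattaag

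TGCATG occurred 4 times around the 93-base exon 6 of RBFOX2, at 3, 28 and 145 bases before the exon and at the second base of the intron after it. The last 100 bases before the exon are shown with the matches in capitals.
RBFOX2, chr22:36164397-36164496, minus strand: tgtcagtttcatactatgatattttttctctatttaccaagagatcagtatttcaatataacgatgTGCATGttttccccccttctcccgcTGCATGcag
The match closest to the exon lies inside the 3′SS itself, and the match after it overlaps the 5′SS. The 36-base exon of MBNL1 had TGCATG 8 bases before its start and again at its base 12. The exon of 80 bases of CELF1 had a match 24 bases before its start, and the 40-base exon of RBFOX2 had a match 77 bases before. Exons that were not called had such matches too, at 29 bases before the 204-base exon of MBNL1, 67 and 71 before its 64-base exon and 74 before the 162-base exon of CELF1. With 100 bases of intron on each side, 29.7% of the 37 exons and 8.91% of all exons held TGCATG. In MBNL2 a match lay 122 bases upstream of the 95-base exon, and another lay inside the 264-base exon, which was not called. The QKI exon of 75 bases had none within 250 bases.

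Related regulators were counted by events and by distinct exons. Of 12 paralogs of the 5 genes, 8 were listed and 17 of 72 events were called, or 23.6%, all positive. By distinct exons the share was 35.9%, beside 35.8% of all exons. KHDRBS3, a relative of QKI, had differences of 0.185 and 0.246 for exons of 83 and 59 bases. The 8 proteins of the LASR complex, with which RBFOX proteins assemble, were all listed, and 38 of 216 events were called, or 17.6%, while by distinct exons the share was 34.1%. Among them a 42-base exon of MATR3, which encodes a nuclear matrix protein, differed by 0.239 with an FDR listed as 0 in the authors' table.

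Other tissue-specific regulators had 13 of 31 events called, or 41.9%, and 45.5% of distinct exons, in 4 of the 6 genes listed. PTBP2, the neuronal paralog of the polypyrimidine tract binding protein, accounted for the 5 exons of lowest FDR. Its 34-base exon differed by -0.325 with an FDR of 1.16e-13 in the authors' table, while exons of 78, 155 and 140 bases differed by 0.674, 0.578 and 0.495. The 34-base exon of PTBP2 is known to be skipped under the action of PTBP1, and skipping it leads to decay of the transcript.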

How the data were processed

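Polyadenylated RNA of HEK293T cells was sequenced from 1 control and 1 amiloride library. Per the submitters' processing notes, reads were aligned with STAR 2.5.1 to hg19 (GRCh37). The authors deposited 5 rMATS tables that give each event a p-value, its FDR and a difference in inclusion level, taken here as they stand. The rMATS version is not given in the sources used here. The inclusion level difference is a score from -1 to 1 that the authors computed, and no statistic of their comparison was recomputed. The 30 columns that hold values of single libraries were left out, because the headers do not name the condition. The depth per library is therefore unknown and no interval is given.

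Members and lists were chosen with earlier results of these data known. Named exons are, per gene, the called skipped exons and those of 54, 36, 93, 40 or 43 bases, and for other event types the 2 events of lowest FDR. Further member events and exons were named after their values were seen. Events were grouped by exon. Coordinates are 1-based on GRCh37, and exon numbers follow the canonical transcript in GENCODE 44 (the GRCh37 lift). Splice site scores used 9 bases (5′SS) and 23 bases (3′SS) with weights from 300803 and 300208 annotated sites and a pseudocount of 0.5. The scoring, motif search and grouping were tested on simulated data. Alternatives were a stricter FDR (0.05 or 0.01), a minimum difference of 0.1, every event of an exon called, other events standing for an exon, exons between AG and GT, and 100 bases of intron. Python 3.11.15, numpy 2.4.6, pandas 2.3.3 and matplotlib 3.10.9 were used.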

Additional observations from a re-analysis of the deposited data

How the results depend on the processing

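At an FDR under 0.05 and 0.01 the counts of called skipped-exon events (24), called exons (19), 3′SS events (9) and retained introns (3) stayed within 1.5 times. Mutually exclusive exon events fell from 13 to 8 at 0.01. A difference of at least 0.1 left 9 skipped-exon events, 9 exons, 7 mutually exclusive exon events and 5 alternative 3′SS events. Over all genes, 5910 of 39869 mutually exclusive exon events and 367 of 2868 alternative 3′SS events passed. When every event of an exon had to pass, 14 skipped-exon events and 11 exons remained called. These falls follow from stricter criteria. With the median over all events of each exon, the median difference of called exons was 0.0465 in place of 0.071. No called exon changed sign, and 9 of 19 moved by over 1.5 times, the 36-base exon of MBNL1 from 0.633 to 0.322. With 100 bases of intron, QKI matches fell from 5 to 2 exons, or 5.4%, beside 8.72% of all exons. CELF matches fell from 16 to 7 exons, or 18.9%, beside 11.8% of all exons. Restricting to exons between AG and GT changed nothing, since all 37 qualify. No paired analysis was possible because control and amiloride cells gave 1 library apiece, with no replicate numbers.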

Other observations

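Genes known as targets of these proteins were listed for comparison, with differences of the same sign convention. The counts cover every listed skipped exon of each gene. Whether an exon named here is the one that the protein regulates was not checked. Known targets of RBFOX2 had 40 of 141 skipped-exon events called, or 28.4%, and 39 of the 40 were positive. By distinct exons the share was 37.9%, beside 35.8% of all exons. An exon of 63 bases of EPB41, which encodes a membrane skeleton protein, differed by 0.259 and an exon of 116 bases of MAP3K7, which encodes a signalling kinase, by 0.28, each with an FDR listed as 0 in the authors' table. Known targets of QKI had 21 of 70 events called, or 30%, all positive, and 42.9% of distinct exons. Among them a 75-base exon of NUMB, which encodes an inhibitor of Notch signalling, differed by 0.296. Known targets of the muscleblind proteins and CELF1 had 14 of 74 events called, or 18.9%, and 23.7% of distinct exons. Of the 10 genes, TNNT2, LDB3 and CLCN1, which are best known from muscle, were not listed. A 39-base exon of DMD, which encodes dystrophin, differed by 0.378 with an FDR of 6.09e-08, and a 69-base exon of NUMA1, which encodes a spindle protein, by 0.403. Called NUMA1 exons of 42, 70 and 158 bases differed less, by 0.086, 0.206 and 0.062. The target lists were chosen with earlier results of these data known, and the shares stand beside the 27.5% of all events with no test.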
